A study of Homo sapiens with 6 samples.

Results

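The miR-200 family and miR-205 are the miRNAs most often used to describe the epithelial state of a cell, and their probes were examined here on miRNA arrays of Panc-1 cells. Members were chosen by name and not by a rule on their measured values, but with earlier results of these arrays known. All 10 named members, hsa-miR-200a-3p, hsa-miR-200a-5p, hsa-miR-200b-3p, hsa-miR-200b-5p, hsa-miR-200c-3p, hsa-miR-200c-5p, hsa-miR-141-3p, hsa-miR-141-5p, hsa-miR-429 and hsa-miR-205-5p, were present among the 2565 miRNA features of the array. Panc-1 is an established cell line derived from a pancreatic ductal adenocarcinoma. RNA of untreated cells (0 ng/mL of TGF-β) was on 3 control arrays, and RNA of cells given TGF-β at 10 ng/mL for 72 h was on the other 3. Nothing in the labels states that the replicates came from separate cultures, so the p-values measure the spread between these samples, which may be technical.

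A miRNA is cut from a hairpin precursor, and each hairpin can give a mature strand from its 5p arm and one from its 3p arm. The strand pairs with target mRNAs mainly through its seed, bases 2 to 8, and lowers their output. The 3p strands of the miR-200 family repress the transcription factors ZEB1 and ZEB2, which in turn repress the miR-200 genes and E-cadherin, so that the miRNAs and the ZEB factors hold each other down. miR-205 shares no seed with the family but also targets the ZEB mRNAs and is abundant in stratified epithelium. TGF-β is a secreted cytokine that can start an epithelial-mesenchymal transition (EMT), in which loss of these miRNAs has often been described. The comparison of TGF-β with control cells therefore asks whether the miRNAs changed in this line.

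The mature sequences show which members are closely related, and they are given here because 3p strands that differ in few bases may not be told apart by a hybridization probe. RefSeq (GRCh38.p14) held 9 of the 10, all but hsa-miR-141-5p. They are written 5′ to 3′ with the seed in capitals. The first pair shares the seed AACACUG.
hsa-miR-200a-3p: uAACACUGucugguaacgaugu
hsa-miR-141-3p: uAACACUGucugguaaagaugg
The next 3 share the seed AAUACUG.
hsa-miR-200b-3p: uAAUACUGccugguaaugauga
hsa-miR-200c-3p: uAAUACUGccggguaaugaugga
hsa-miR-429: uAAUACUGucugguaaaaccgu
The 5p strands carry AUCUUAC in hsa-miR-200a-5p and hsa-miR-200b-5p, and GUCUUAC in hsa-miR-200c-5p.
hsa-miR-200a-5p: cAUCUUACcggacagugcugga
hsa-miR-200b-5p: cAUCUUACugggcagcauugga
hsa-miR-200c-5p: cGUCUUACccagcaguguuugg
hsa-miR-205-5p: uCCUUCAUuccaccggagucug

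The 9 sequences held 5 distinct seeds. Over 22 positions counted from the 5′ end, hsa-miR-200a-3p and hsa-miR-141-3p differed at 2 positions, as did hsa-miR-200b-3p and hsa-miR-200c-3p. hsa-miR-200a-3p and hsa-miR-200b-3p differed at 4 positions, and hsa-miR-200b-3p and hsa-miR-429 at 6. Among the 2253 array names with a mature sequence in the same RefSeq table, 1 further miRNA, hsa-miR-550a-3p, carried a seed of a member, that of hsa-miR-200c-5p. The probe sequences and their specificity are not given in the sources used here.

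The members come from 3 loci. On chromosome 1, MIR200B (chr1:1167104-1167198), MIR200A (chr1:1167863-1167952) and MIR429 (chr1:1169005-1169087) lie within 1984 bp, inside the host gene MIR200BHG. On chromosome 12, MIR200C (chr12:6963699-6963766) and MIR141 (chr12:6964097-6964191) lie within 493 bp, inside the long non-coding RNA gene MIR200CHG (chr12:6963245-6964447). MIR205 (chr1:209432133-209432242) lies inside the long non-coding RNA gene MIR205HG (chr1:209428820-209432549). These positions are those of the RefSeq annotation of GRCh38.p14, since the array files name no build.

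Signals are scanner intensities of 1 spot per miRNA and array, and each was read against the spots of its array that are named blank, 288 of 320 after 5% were left out at each end. A miRNA was counted as detected on an array where its signal exceeded the blank mean by 2 SD. The blank means were 18.2 to 21.3 intensity units, their SDs 0.528 to 0.768 units and the limits 19.5 to 22.8 units, and 59.7% to 69.7% of all miRNAs were above the limit of their array. The limit is a lenient one. On each array 5.62% to 7.81% of the blank spots themselves were above it, as were 16 to 24 of the 32 spots named as negative controls (50% to 75%). The highest negative control spot lay 6.23 to 9.26 SD above the blank mean, depending on the array. Each of the slides held the arrays of a single group, so slide and treatment cannot be told apart.

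Few members of the family stood clear of the background in Panc-1 cells. hsa-miR-200a-3p and hsa-miR-200b-3p were detected on all 6 arrays and hsa-miR-200a-5p on 5. The other members were above the limit on at most 3 arrays, and hsa-miR-141-3p on none. Of the 60 member values, 27 were above the limit (45%), 13 of 30 in control cells and 14 of 30 in TGF-β-treated cells. By array, control cells showed 3, 6 and 4 of the 10 members and TGF-β-treated cells 5, 7 and 2. The array with 7, TGF-β replicate 2, also had the highest share of all miRNAs detected, 69.7%, and the smallest blank SD, 0.528 units. The rule for testing a miRNA, detection on all arrays of the control or of the TGF-β group, was met by 3 of the 10 members, all from MIR200A or MIR200B, against 56.8% of all miRNA features. In such bulk RNA, fewer expressing cells and less RNA per cell cannot be told apart.

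**Figure D1:**
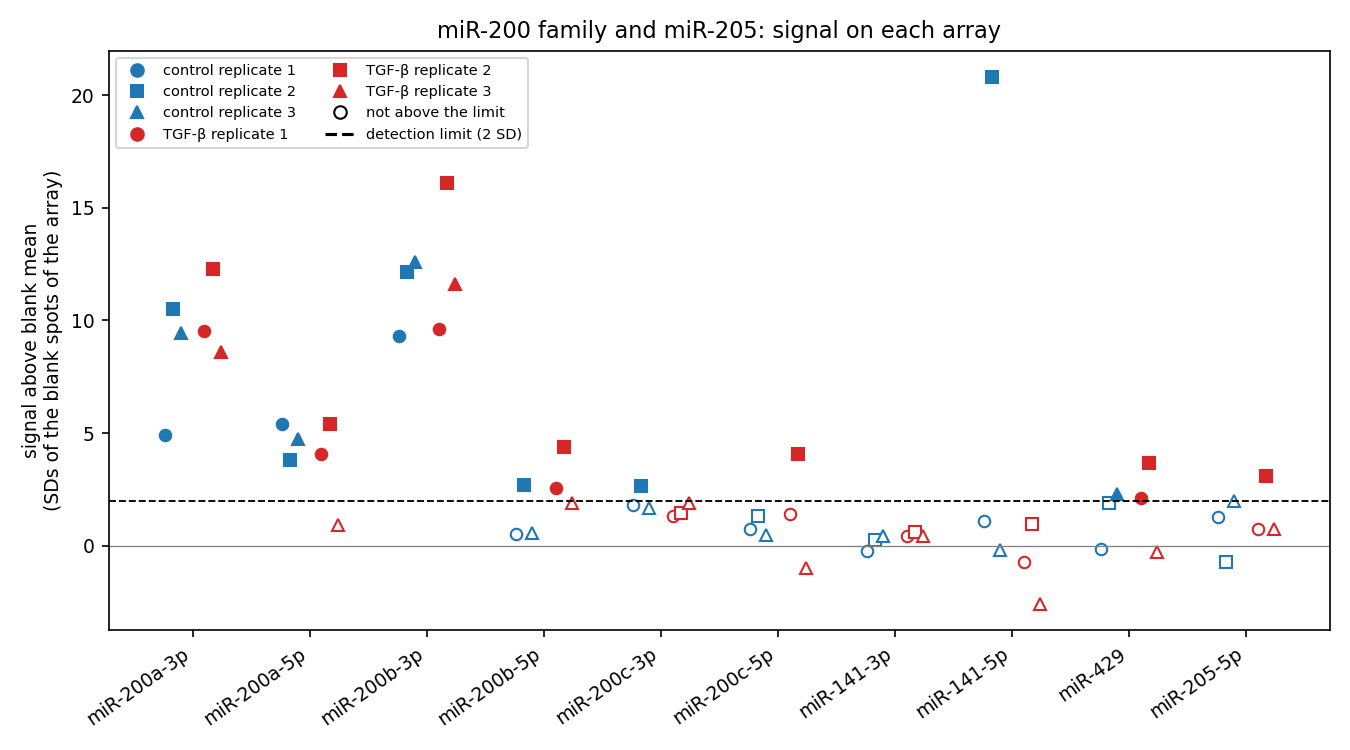
Signal of each of the 10 members (x axis) on each array, as SDs of the blank spots of that array above their mean (y axis). Blue points are control and red points TGF-β arrays, the symbol gives the replicate, open points did not exceed the limit and the dashed line is the limit of 2 SD. hsa-miR-200b-3p lay at 9.31 SD or more on every array, whereas apart from hsa-miR-141-5p on 1 control array the 7 members that were not tested stayed at or under 4.40 SD.

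hsa-miR-200b-3p, a main ZEB-repressing strand of the family, was the member with the most secure signal. Its signal exceeded the blank mean by 6.07, 7.55 and 9.65 units in control replicates 1, 2 and 3, which is 9.31, 12.1 and 12.6 blank SDs. In TGF-β replicates 1, 2 and 3 it exceeded the blank mean by 6.31, 8.50 and 7.88 units, or 9.62, 16.1 and 11.6 SDs. The groups overlapped, with means of 7.76 ± 1.80 units in control and 7.56 ± 1.13 units in TGF-β-treated cells (SD, n = 3 each). It was the only member above the highest negative control spot on all 6 arrays, which 29.6% of all miRNA features were. After quantile normalization its log2 signal was 2.93 ± 0.14 in control and 2.91 ± 0.13 in TGF-β-treated cells. The log2 fold change, TGF-β over control, was -0.014 (SE 0.15, 95% confidence interval -0.35 to 0.32), or 0.991-fold with an interval of 0.785 to 1.25. limma gave an adjusted p of 0.993, and a 2-sided exact permutation test gave p = 1, where 3 arrays against 3 cannot give less than 0.1.

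hsa-miR-200a-3p carries the seed shared with hsa-miR-141-3p and is processed from the neighbouring hairpin. It exceeded the blank mean by 3.21, 6.52 and 7.25 units (4.92, 10.5 and 9.44 SDs) in control replicates 1 to 3. The TGF-β arrays gave 6.25, 6.49 and 5.83 units (9.53, 12.3 and 8.59 SDs). Control replicate 1 was the low array, and in units the TGF-β values lay within the range of the control values, whereas in SDs TGF-β replicate 2 was above all control arrays. The means were 5.66 ± 2.15 units in control and 6.19 ± 0.333 units in TGF-β-treated cells (SD, n = 3 each). On 4 of 6 arrays the signal was above the highest negative control spot, the exceptions being control replicate 1 and TGF-β replicate 3. The log2 fold change was 0.22 (SE 0.24, interval -0.30 to 0.75), or 1.17-fold with an interval of 0.811 to 1.68, with an adjusted p of 0.767 in limma and an exact permutation p of 0.8. Without control replicate 1 the log2 fold change was -0.066, so the sign rests on that array.

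hsa-miR-200a-5p is the opposite strand of the same hairpin, and its signal lay within the range of the negative control spots. Control replicates 1 to 3 were 3.53, 2.36 and 3.65 units above the blank mean (5.41, 3.80 and 4.76 SDs), and TGF-β replicates 1 to 3 were 2.67, 2.84 and 0.634 units above it (4.07, 5.38 and 0.933 SDs). TGF-β replicate 3 was not above the limit, and the other TGF-β arrays lay among the control values. The probe passed the filter through the control group alone and was above the highest negative control spot on 0 arrays. The fitted values that follow depend on the floor given to TGF-β replicate 3 and are no measured size of a fall. The log2 fold change was -0.71 (SE 0.39, interval -1.58 to 0.16), or 0.613-fold with an interval of 0.335 to 1.12. limma gave an adjusted p of 0.479 and the exact permutation test p = 0.3. The probe was tested only because its control arrays were above the limit, so no conclusion is drawn from these p-values. Without TGF-β replicate 3 the log2 fold change was -0.23, and with the deposited values, where that array is empty, it was 0.029.

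**Figure D2:**
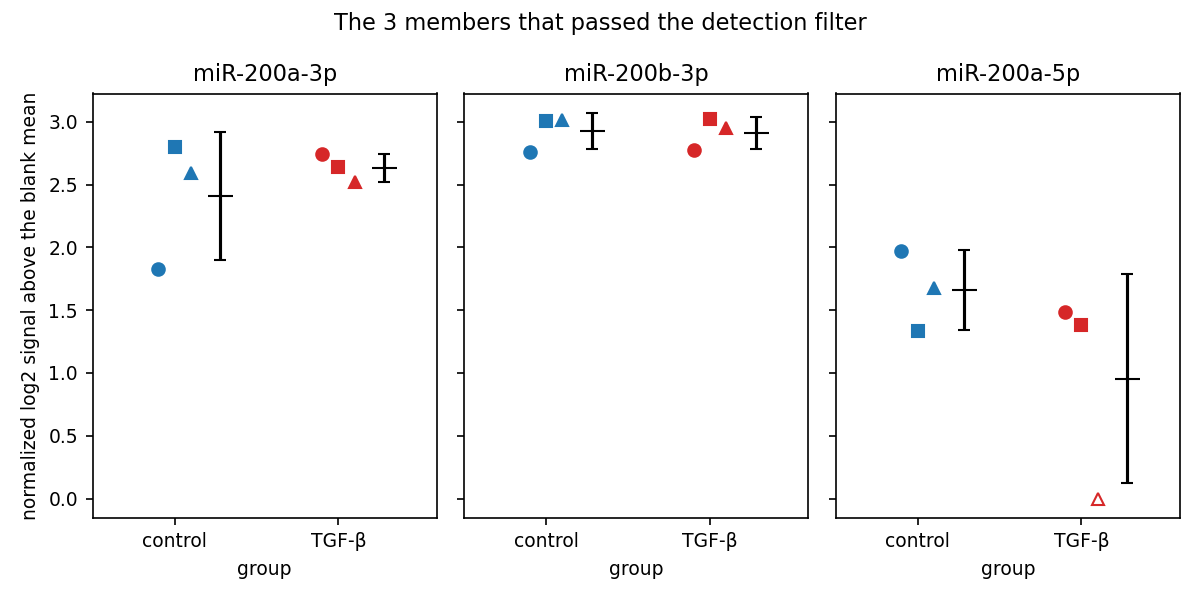
Quantile-normalized log2 signal above the blank mean (y axis) of the 3 members tested, by group (x axis). Points are arrays with the same symbols as in the plot of member signals, the open point did not exceed its limit, and bars are the mean and SD of 3 arrays. Control and TGF-β values overlap for each member, and the low mean of hsa-miR-200a-5p in TGF-β-treated cells, 0.96, comes with 1 array at the floor.

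Of the miRNAs tested, limma called 3.98% (58 of 1457) at an adjusted p under 0.05, of which 20 fell and 38 rose with TGF-β, and the unadjusted p was under 0.05 for 202. Of the 3 members tested, 0 were called and 0 had an unadjusted p under 0.05. hsa-miR-200a-5p is counted among them, though it passed the filter through the control group alone. The groups did not overlap for 19% of the miRNAs tested and for 0 of the 3 members. The median log2 fold change of all miRNAs tested was -0.013 with quartiles of -0.15 and 0.16, so the value of hsa-miR-200b-3p lay between the quartiles and those of hsa-miR-200a-3p and hsa-miR-200a-5p outside them. An adjusted p above the threshold does not show that the levels were equal. The interval of hsa-miR-200b-3p held changes down to 0.785-fold. That of hsa-miR-200a-5p depends on the floor given to TGF-β replicate 3, which was not above background, and its log2 fold change was -0.58 with the floor at 2 SD of the blank spots.

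**Figure D3:**
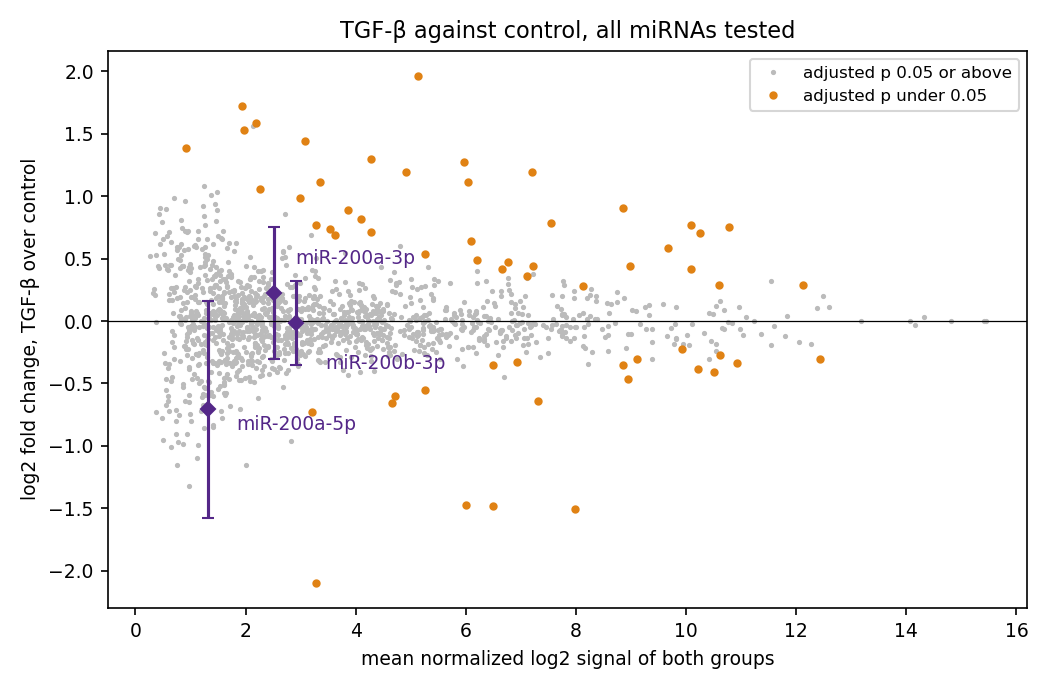
log2 fold change, TGF-β over control (y axis), against the mean normalized log2 signal of both groups (x axis) for the 1457 miRNAs tested. Orange points had an adjusted p under 0.05, and purple diamonds are the 3 members with 95% confidence intervals. The members lie at the dim end, where the fold changes spread most, and each interval includes 0.

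The MIR200C and MIR141 locus on chromosome 12 gave almost no signal above background. hsa-miR-200c-3p, a ZEB-repressing strand of that locus, lay 1.80, 2.64 and 1.66 SDs above the blank mean in control cells and 1.32, 1.43 and 1.90 SDs in TGF-β-treated cells. It exceeded the limit in control replicate 2 alone, and TGF-β replicate 3 lay above the other control arrays, so no fold change is given. With a limit of 3 SD it was detected on 0 arrays. hsa-miR-200c-5p lay at 0.725, 1.33 and 0.497 SDs in control cells and at 1.41, 4.06 and -0.980 SDs in TGF-β-treated cells, above the limit in TGF-β replicate 2 alone. hsa-miR-141-3p stayed between -0.221 and 0.596 SDs on all arrays, so the array gave no measured level for it in either group.

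hsa-miR-141-5p was above the limit on 1 array, by a wide margin. Its signal in control replicate 2 was 32.0 units, 12.9 units or 20.8 SDs above the blank mean, which was also above every blank and negative control spot of that array. On the other 5 arrays it lay between -1.74 and 0.724 units from the blank mean and was not detected. It was thus measured on 1 of 3 control arrays and on 0 of 3 TGF-β arrays, so no fold change is given, and without control replicate 2 the probe was detected on none. The level of hsa-miR-141-5p in control cells therefore rests on a single spot.

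The remaining members were near the limit. hsa-miR-200b-5p lay at 0.541, 2.68 and 0.547 SDs in control cells and at 2.57, 4.40 and 1.90 SDs in TGF-β-treated cells, above the limit on 1 and 2 arrays. hsa-miR-429, the third miRNA of the chromosome 1 cluster, lay at -0.134, 1.88 and 2.29 SDs in control cells and at 2.11, 3.67 and -0.257 SDs in TGF-β-treated cells, again above the limit on 1 and 2 arrays. With a limit of 3 SD each was detected on 1 array. hsa-miR-205-5p lay at 1.28, -0.715 and 1.98 SDs in control cells and at 0.754, 3.11 and 0.753 SDs in TGF-β-treated cells, above the limit in TGF-β replicate 2 alone. The groups overlapped for each of these 3 probes, and none of their signals reached the highest negative control spot of its array. When all 2565 features were fitted with no filter, limma gave the 10 members adjusted p-values of 0.795 to 1. Most values of the dim members were at the floor of 1 unit, and for hsa-miR-141-3p all were. A fit on such values can hardly call a change, so nothing is concluded from it for the dim members.

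In the processed values the authors deposited, where the array's own detected miRNAs have a median of 25, the same 3 members were given on at least 5 arrays each. hsa-miR-200b-3p was given as 25, 33 and 33 in control and 26, 41 and 31 in TGF-β-treated cells, and hsa-miR-200a-3p as 13, 28 and 24 against 26, 31 and 23. hsa-miR-200a-5p was given as 15, 10 and 12 against 11 and 14, with no value for TGF-β replicate 3. One blank SD equals 2.52 to 2.73 on that scale. The ratio of the group means was 1.08 for hsa-miR-200b-3p and 1.23 for hsa-miR-200a-3p, and the groups overlapped for each.

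**Figure D4:**
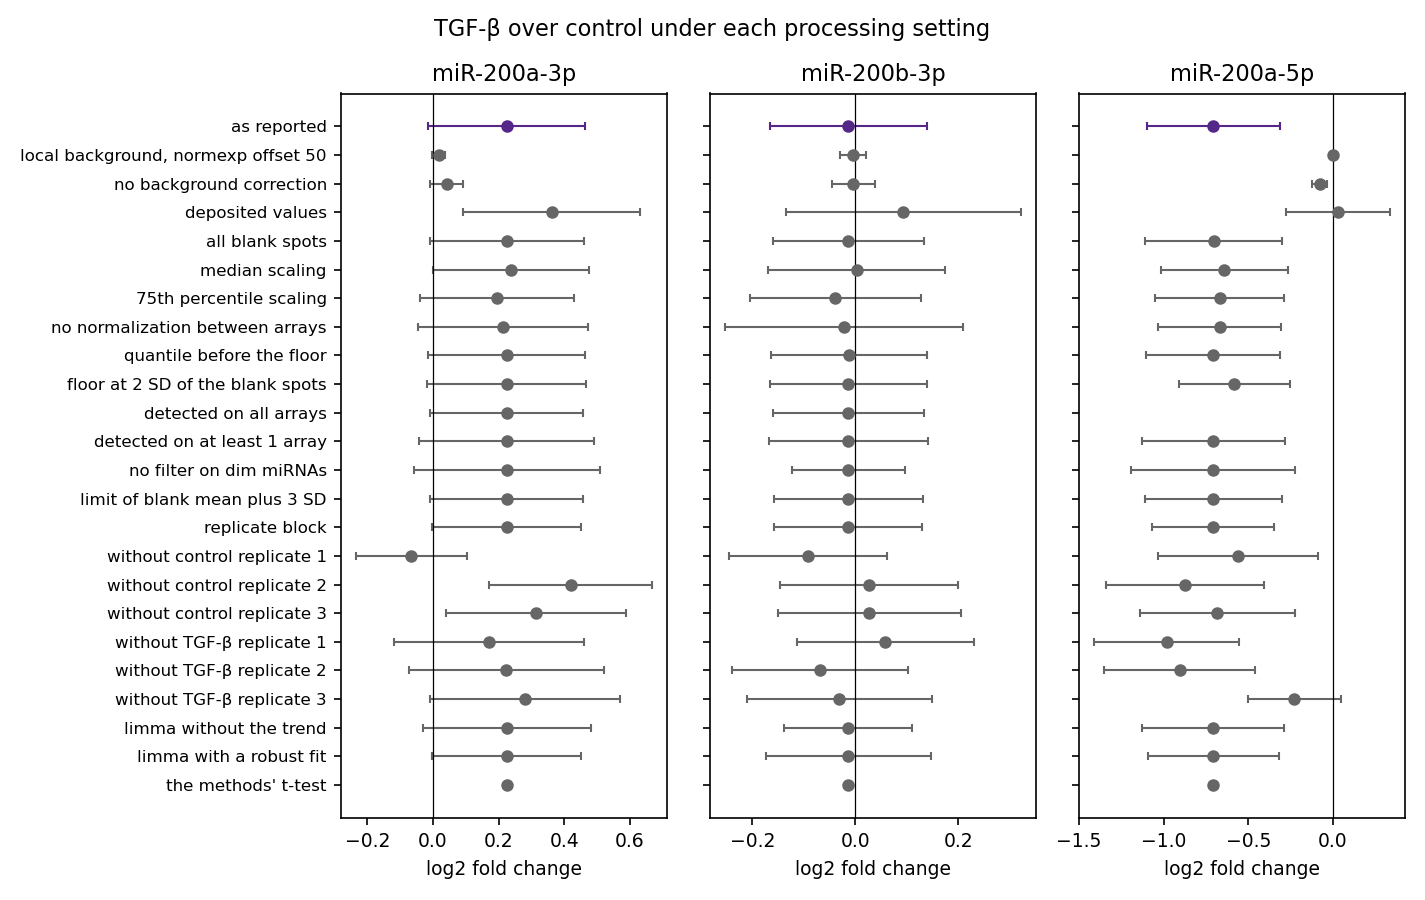
log2 fold change, TGF-β over control (x axes, scaled for each panel), of the 3 members tested under each way of processing the arrays (rows). Bars are the standard error of the limma fit, none is drawn for the methods' t-test, and an empty row means that the member was not tested. hsa-miR-200b-3p stayed between -0.093 and 0.093, and hsa-miR-200a-5p moved most, from -0.98 to 0.029.

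Other epithelial miRNAs were read from the same arrays for comparison. Of a list of 10 miRNAs of epithelial and endodermal cells, 8 were detected on all arrays and tested. Of these, 0 were called, and their median log2 fold change was 0.0083 (range -0.15 to 0.51). Of all 2565 miRNA features, 1282 were detected on all arrays, and 3.98% of miRNAs tested were called. With so few miRNAs in the list, 0 called is near that share. Their distance from the blank spots varied widely. hsa-miR-182-5p lay at 349 to 600 blank SDs and hsa-miR-192-5p, a miRNA of the gut and liver lineage, at 47.6 to 71.9 SDs, whereas hsa-miR-183-5p lay at 4.79 to 10.5 SDs and hsa-miR-203a-3p, a miRNA of the skin, at 2.09 to 6.27 SDs. hsa-miR-205-3p, the other strand of the miR-205 hairpin, was detected on 0 arrays. hsa-miR-375, a miRNA of islet and other endocrine cells, was detected on 1.

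Of 14 miRNAs commonly described in TGF-β responses or mesenchymal cells, all were tested, 3 were higher and 1 was lower, where 3.98% of all miRNAs tested were called in either direction. Their median log2 fold change was 0.084, and the list was chosen with earlier results of these arrays known. hsa-miR-181a-5p rose by 1.19 (SE 0.08, adjusted p of 5.72e-06 in limma) and hsa-miR-181b-5p by 1.28 (SE 0.09, adjusted p of 5.9e-06). hsa-miR-23a-3p rose by 0.29 (adjusted p of 0.00483) and hsa-miR-10b-5p fell by 0.38 (adjusted p of 0.00294). These probes lay from 53.3 blank SDs upwards on every array.

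Markers of other cell types were checked against the labelled cell line. Of 7 blood cell miRNAs, 3 were detected on all arrays, all 7 on at least 2, and 0 of the 5 tested were called. Of all 2565 miRNA features, 1282 were detected on all arrays and 2043 on at least 1, and 3.98% of miRNAs tested were called. Detection here is by the lenient limit that 50% to 75% of the negative control spots also passed. hsa-miR-486-5p lay at 22.1 to 34.6 SDs and hsa-miR-451a, a miRNA of red blood cells, was on 5 arrays. Both endothelial miRNAs were detected on all arrays, and hsa-miR-126-3p was lower by a log2 fold change of -0.32 (adjusted p of 0.0411 in limma). Of 4 acinar miRNAs, hsa-miR-217 and hsa-miR-216b-5p were on 0 arrays, hsa-miR-216a-5p on 2 and hsa-miR-148a-3p on all. Of the islet pair hsa-miR-7-5p was on all arrays and hsa-miR-375 on 1, and the liver miRNA hsa-miR-122-5p was on 3 and not tested.

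The miRNAs whose pattern over the 6 arrays was most like that of hsa-miR-200b-3p were hsa-miR-22-5p, hsa-miR-6859-3p and hsa-miR-1238-5p. After each miRNA was centred on its own mean log2 signal, the root mean square difference from hsa-miR-200b-3p was 0.029, 0.052 and 0.053, against a median of 0.219 over the 1280 miRNAs compared. In all 4 miRNAs, replicate 1 was the lowest array of its group in both groups. The pattern is a description over 6 arrays that share slides and array positions.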

How the data were processed

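Total RNA of Panc-1 cells was labelled with Cy5 and hybridised to Toray 3D-Gene miRNA arrays, 1 sample per array. The authors deposited the scanner output, the median signal and local background intensity of each of 3200 spots without normalization, and processed values on a linear scale, which were rebuilt exactly from the intensities: the blank mean, with 5% of spots left out at each end, is subtracted, the median of the detected miRNAs is set to 25, and values not above the blank mean by 2 SD are empty. The array software is not given in the sources used here. For this report the blank mean was subtracted, a floor of 1 unit was set, and log2 values were quantile normalized over miRNA probes. miRNAs detected on all arrays of the control or of the TGF-β group were tested with limma 3.58.1 in R 4.3.3 (lmFit and eBayes with trend), with Benjamini-Hochberg adjustment over 1457 miRNAs. The blank mean was preferred to the local background, whose median ratio to the signal on spots above 200 units was 0.434 to 0.990 by array. A spot was left out where its gain flags were not OK. Probe affinities are unknown, so signals were set against the blank and negative control spots and give no order of abundance between miRNAs. The fit was tested on simulated data. The members and the lists (epithelial, TGF-β, and markers of blood cells, endothelium, acinar cells, islets and liver) were chosen with earlier results of these data known. The members were always named, list miRNAs when called or when a marker's detection is described, and the 3 miRNAs most like hsa-miR-200b-3p by the root mean square of centred log2 values; hsa-miR-182-5p, hsa-miR-192-5p, hsa-miR-183-5p and hsa-miR-203a-3p were named after their values were seen. The alternatives were other backgrounds, scalings, floors, filters and fits, the replicate block and each array left out. The precision is limited by the 3 arrays per group. Figures were drawn with matplotlib 3.10.9 in Python 3.11.15.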

Additional observations from a re-analysis of the deposited data

How the results depend on the processing

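None of the alternatives called a member tested by limma, with adjusted p-values of 0.574 to 0.991 over 23 alternatives for hsa-miR-200a-3p, 0.404 to 0.992 over 22 for hsa-miR-200a-5p and 0.859 to 1 over 23 for hsa-miR-200b-3p. The sign of the log2 fold change was less stable. hsa-miR-200a-5p turned to 0.0035 with the local background (normexp, whose offset of 50 exceeds these signals) and to 0.029 with the deposited values. hsa-miR-200b-3p turned to 0.093 with the deposited values and to 0.0022 with median scaling. With each array left out in turn, hsa-miR-200a-3p ranged from -0.066 to 0.42, hsa-miR-200a-5p from -0.98 (without TGF-β replicate 1, where its unadjusted p was under 0.05) to -0.23 and hsa-miR-200b-3p from -0.093 to 0.058. The members passing the detection rule numbered 3, against 9 when 1 array sufficed and 2 when all arrays were required. Of all 2565 miRNA features, 1457 passed the rule, against 2043 when 1 array sufficed and 1282 when all arrays were required. Without TGF-β replicate 3, 5 members passed the rule. The count of all miRNAs called, 58, became 0 with the local background (34 at an unadjusted p under 0.05), 31 with the deposited values, 35 with no normalization between arrays, 19 with no filter, 32 with limma without the trend and 17 with the methods' t-test after Benjamini-Hochberg (194 at an unadjusted p under 0.05). Leaving out 1 array gave 25 (without TGF-β replicate 2) to 51 (without control replicate 1), with 33 without TGF-β replicate 3, 35 without control replicate 2 and 39 without TGF-β replicate 1. The cause of these changes was not tested.

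Replicate numbers recur in both groups and are also array positions. After each group mean was subtracted, arrays of the same number correlated by 0.129, 0.111 and -0.027 over 1282 miRNAs. Arrays of different numbers were not compared in this way, so these values cannot decide whether the numbers are pairs. The main fit used the group alone, with the replicate block as the alternative. With the replicate block 60 miRNAs and 0 members were called. Apart from hsa-miR-141-5p in control replicate 2, the members not tested lay so near the blank spots that a fall in them was not detectable on these arrays.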
